A study of Mus musculus with 24 samples.

Results

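The autophagy machinery was followed here as 38 genes, taken by gene symbol from a list of the pathway's parts, among the 14537 genes of count tables from 2 tissues, skeletal muscle and heart, of mice with and without pancreatic cancer, all male and C57BL/6J. KPC+GnP mice carried KPC32908 cells, a mouse pancreatic cancer line implanted orthotopically, and received gemcitabine, a nucleoside analogue, with nab-paclitaxel, a taxane carried on albumin that acts on microtubules. KPC mice carried the same cells and received vehicle. Control mice had sham surgery and are labelled as not treated, although the name of the cell line also stands in their labels, so KPC against control covers tumour and vehicle together. All groups share strain and sex, no age is given, and all tumours come from a single line. The series was designed around cachexia, the wasting of muscle that accompanies the cancer, and around the effect of the 2 drugs on it. Each group had 4 libraries per tissue, 24 in all from 16 animals, and 8 animals gave both tissues.

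Autophagy encloses part of the cytoplasm in a double membrane and delivers it to the lysosome. A kinase complex around Ulk1 starts the process, a lipid kinase complex around Pik3c3 marks the site, Atg9a vesicles and lipid transfer proteins build the membrane, and a conjugation system attaches the ATG8 proteins (the LC3 and GABARAP families) to it, to which receptors bring their cargo. In striated muscle the pathway removes worn mitochondria and, in wasting, takes part in the breakdown of the fibre, while the transcription factor Tfeb switches on many genes of autophagy and lysosomes. The 38 genes comprised 4 of the initiation kinase complex, 4 of the class III phosphatidylinositol 3-kinase complex, 5 of membrane source and lipid transfer, 10 conjugation enzymes, 5 ATG8 proteins, 4 general cargo receptors, 4 receptors or triggers of mitophagy (autophagy of mitochondria) and 2 transcription factors. All of them were in both tables and passed the filter on low counts in every fit, with 76 to 60509 counts per gene and library.

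Muscle libraries held 18285396 to 27382432 counts, and heart libraries 11020931 to 20969551. Markers separated the tissues: 9 genes of skeletal muscle fibres summed to 119354 to 203766 CPM (counts scaled to the library's depth) in muscle and 851 to 2855 CPM in heart. The 7 genes of cardiomyocytes summed to 95.8 to 840.3 CPM in muscle and 34218 to 75783 CPM in heart. Of these, Nppa, which was listed among atrial markers too, was at 0 in all muscle libraries. In whole tissue, fewer cells of a type and less RNA per cell cannot be told apart. The labels do not say that libraries of a group are separate animals other than by the number in their titles, which was read as the animal. CPM below are scaled within a tissue by trimmed mean of M values (TMM), fold changes are on the log2 scale from edgeR, and an edgeR adjusted p is the Benjamini-Hochberg adjusted p of its quasi-likelihood test over all genes tested, called below 0.05. The words rose and fell are used only of changes that were called, and a value with treatment is that of KPC+GnP against KPC.

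Promoter windows of 32 of the 38 genes (38 windows) were in the RefSeq table for build GRCm38.p6, each running from 250 bases before to 50 bases after a start. No window was listed for Becn1, Pik3c3, Atg12, Atg16l1, Map1lc3a and Bnip3l. The letters CACGTG, the core of the element that Tfeb and its relatives are known to bind, stood in windows of 5 members (Atg14, Atg3, Atg5, Atg7 and Bnip3), in 5 of 38 windows, against 7.15% of all 32851 windows of this length. TCACGTGA, a longer form that contains CACGTG, was found for Atg3 alone, against 0.974% of all windows. GTAAACA, letters bound by forkhead (FOXO) factors, was in none of the members' windows and in 3.65% of all windows. Both strands were searched, and the first 2 motifs read the same on either strand. A match is a description of letters and does not show binding. The windows below were chosen because Gabarapl1 and Bnip3 had the largest changes of their classes in KPC muscle, and Atg3, Atg7 and Atg14 rose there and carried the motif, which is in capitals.
Gabarapl1, chr6:129532942-129533241, plus strand: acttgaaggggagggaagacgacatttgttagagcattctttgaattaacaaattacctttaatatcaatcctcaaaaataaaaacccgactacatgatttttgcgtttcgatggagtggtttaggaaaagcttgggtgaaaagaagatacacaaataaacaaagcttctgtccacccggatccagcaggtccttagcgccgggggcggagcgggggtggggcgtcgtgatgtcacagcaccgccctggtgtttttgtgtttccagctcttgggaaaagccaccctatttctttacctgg
Bnip3, chr7:138909457-138909756, minus strand: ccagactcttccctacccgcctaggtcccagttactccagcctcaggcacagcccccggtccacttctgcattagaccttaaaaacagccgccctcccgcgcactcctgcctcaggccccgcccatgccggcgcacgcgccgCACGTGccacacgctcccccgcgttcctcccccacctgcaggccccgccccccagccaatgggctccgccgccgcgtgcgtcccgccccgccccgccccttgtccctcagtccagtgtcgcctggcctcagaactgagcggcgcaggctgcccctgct
Atg3, chr16:45158579-45158878, plus strand: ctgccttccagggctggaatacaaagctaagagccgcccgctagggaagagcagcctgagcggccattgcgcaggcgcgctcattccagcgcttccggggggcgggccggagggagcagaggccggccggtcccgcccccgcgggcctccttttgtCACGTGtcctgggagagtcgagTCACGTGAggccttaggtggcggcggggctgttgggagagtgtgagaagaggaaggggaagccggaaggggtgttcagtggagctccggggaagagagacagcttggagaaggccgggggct
Atg7, chr6:114670846-114671145, plus strand: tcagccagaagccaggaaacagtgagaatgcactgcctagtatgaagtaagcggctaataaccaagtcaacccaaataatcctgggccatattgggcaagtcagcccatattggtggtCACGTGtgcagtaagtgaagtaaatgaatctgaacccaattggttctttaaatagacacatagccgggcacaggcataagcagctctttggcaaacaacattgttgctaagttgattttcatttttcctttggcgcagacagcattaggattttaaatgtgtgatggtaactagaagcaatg
Atg14, chr14:47568385-47568684, minus strand: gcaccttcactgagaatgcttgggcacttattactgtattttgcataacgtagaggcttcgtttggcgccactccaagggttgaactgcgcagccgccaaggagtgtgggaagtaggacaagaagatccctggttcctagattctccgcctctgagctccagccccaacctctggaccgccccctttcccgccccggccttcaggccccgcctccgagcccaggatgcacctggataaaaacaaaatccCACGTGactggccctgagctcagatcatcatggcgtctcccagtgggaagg
With the start at 0, the first base of the motif lay at position -108 for Bnip3, -94 for the first of 2 in Atg3, -132 for Atg7 and -1 for Atg14. The window of Gabarapl1 held no CACGTG. The RefSeq starts used for Atg7 and Atg14 lie inside the loci of the GENCODE annotation, downstream of their outermost starts, so these windows are of internal starts there.

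Most of the machinery rose in KPC against control muscle, and most of it fell in KPC+GnP against KPC muscle. In KPC against control muscle, 26 of the 38 genes rose, 4 fell and 8 were not called, where 27.5% of all 12760 genes tested rose and 22.1% fell (49.7% in either direction). The median log2 fold change was 0.61 over the members and -0.0026 over all genes. In KPC+GnP against KPC muscle, 3 rose, 26 fell and 9 were not called, where 23.1% of all genes rose and 26.7% fell, with a median of -0.65 over the members and 0.023 over all genes. Both comparisons use the same KPC libraries, so their values are given side by side and are not independent. The 38 genes were chosen with earlier results of these data known, so the shares of all genes are given for description and are no test. All 4 KPC libraries lay above all 4 control libraries for 19 members, against 19.8% of all genes, and below them for 3 members, against 17.4%. All 4 KPC+GnP libraries lay below all 4 KPC libraries for 19 members, against 17.8% of all genes, and above them for 1 member, against 15.9%. Fibroblast markers moved opposite to most members: 6 of 6 fell in KPC against control muscle and 6 of 6 rose in KPC+GnP against KPC muscle. Their summed levels were 529 to 982 CPM in KPC+GnP, 213 to 333 CPM in KPC and 639 to 1677 CPM in control muscle, and none was at 0. Of 9 macrophage markers, 2 fell in KPC against control and 5 rose in KPC+GnP against KPC muscle, with summed levels of 65.2 to 257 CPM in KPC+GnP, 55.9 to 79.0 CPM in KPC and 72.9 to 158 CPM in control muscle. None of the 9 fibre markers was called in KPC against control, and 1 rose in KPC+GnP against KPC. The part of these cell types in the results was not tested.

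**Figure D1:**
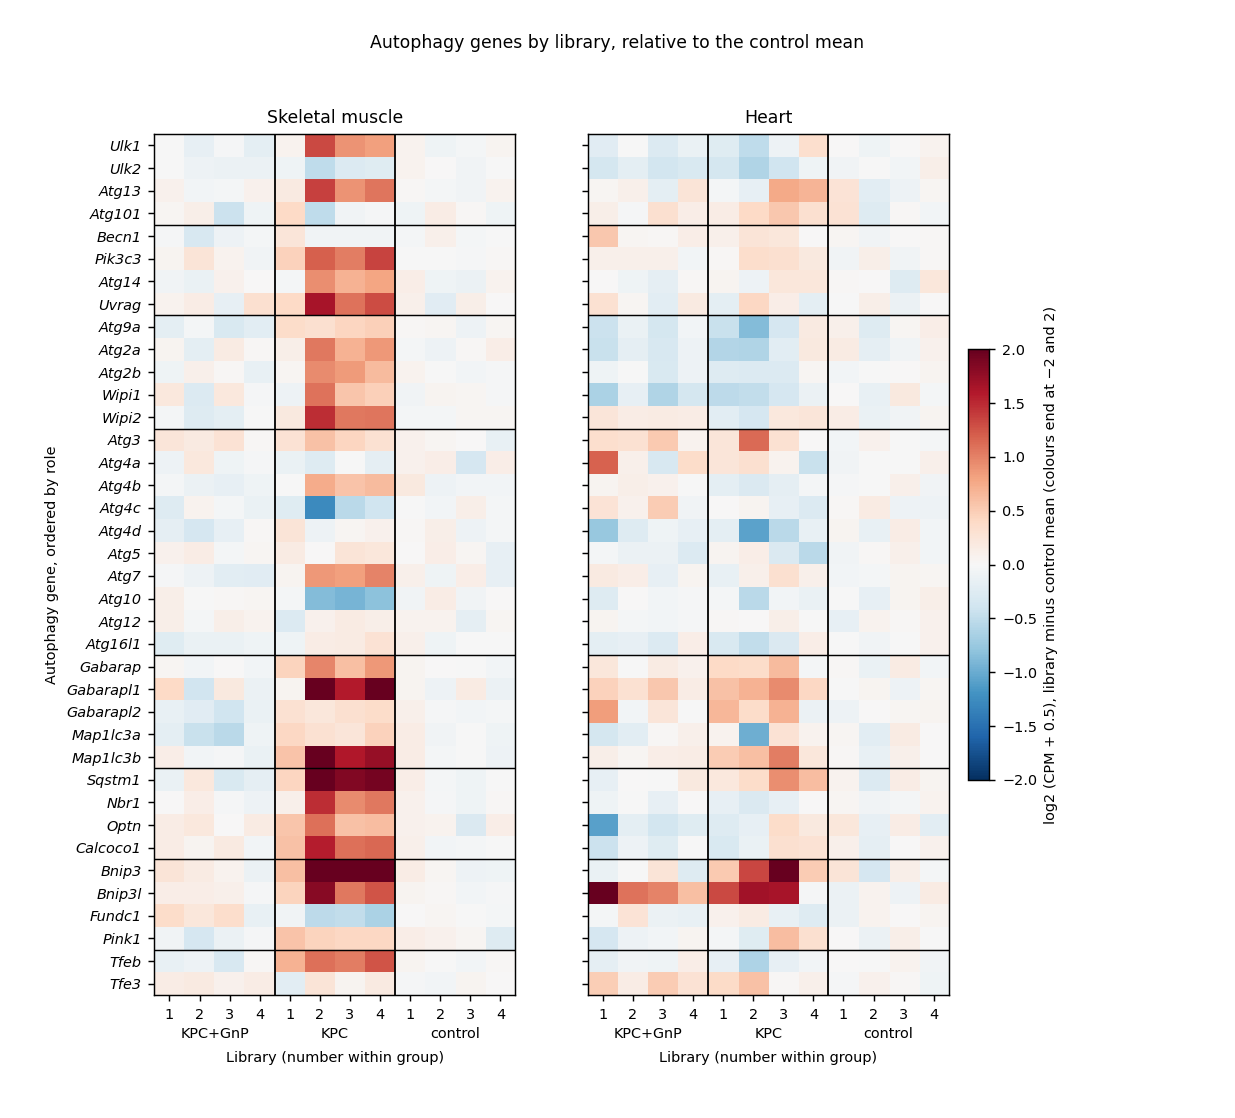
Each cell is the log2 (CPM + 0.5) of a library minus the mean over the 4 control libraries of its tissue, for the 38 autophagy genes (lines separate role classes) in skeletal muscle (left) and heart (right). KPC muscle libraries 2 to 4 are high for most genes and KPC muscle library 1 less so, while KPC+GnP muscle libraries stay near the control libraries. In heart the darkest high cells are those of Bnip3 and Bnip3l.

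Among the initiation genes, Atg13 and Ulk1 rose in KPC muscle and Ulk2 fell. Atg13, the scaffold that holds the complex together, had 44.8, 40.9, 41.2 and 45.2 CPM in KPC+GnP muscle, 47.8, 109.8, 79.2 and 89.8 CPM in KPC muscle, and 43.2, 41.2, 40.5 and 44.6 CPM in control muscle. KPC libraries 2 to 4 were high and library 1 lay just above the highest control, so that the groups did not overlap. Its log2 fold change was 0.95 ± 0.19 (SE, edgeR adjusted p = 0.00179) for KPC against control and -0.92 ± 0.19 (SE, edgeR adjusted p = 0.00203) for KPC+GnP against KPC. Ulk1, the kinase that starts autophagy, had 98.2, 88.6, 97.7 and 86.4 CPM in KPC+GnP muscle, 104, 249.5, 185 and 176 CPM in KPC muscle, and 104, 93.7, 96.5 and 103 CPM in control muscle. Library 1 of the KPC group was level with the highest control library, and the KPC+GnP libraries reached only to control levels. The changes were 0.85 ± 0.19 (SE, edgeR adjusted p = 0.00367) in KPC against control muscle and -0.95 ± 0.19 (SE, edgeR adjusted p = 0.00208) in KPC+GnP against KPC muscle. Ulk2, a closely related kinase, had 197, 185, 181 and 182 CPM in KPC+GnP muscle, 185, 139, 163 and 166 CPM in KPC muscle, and 207, 198, 188 and 196 CPM in control muscle. Here all KPC libraries were below all controls, by a small margin in library 1. Ulk2 fell in KPC muscle, at -0.27 ± 0.10 (SE, edgeR adjusted p = 0.035), and its value with treatment, 0.19 ± 0.10 (SE, edgeR adjusted p = 0.125), was not called. The Ulk2 call was kept in only 4 of 12 fits that left out a library and was lost without any 1 of the 4 control libraries (highest edgeR adjusted p 0.105). Atg101, which stabilises Atg13, was not called in either comparison, at -0.02 ± 0.18 in KPC against control and -0.062 ± 0.18 with treatment.

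In the lipid kinase complex, 3 of 4 genes rose in KPC muscle and the same number fell with treatment. Pik3c3, the catalytic subunit, had 21.3, 24.7, 21.6 and 19.4 CPM in KPC+GnP muscle, 28.5, 47.9, 42.4 and 53.3 CPM in KPC muscle, and 20.5, 20.5, 20.2 and 21.0 CPM in control muscle. Control libraries were close to each other and every KPC library was above them, with library 1 the lowest. Its log2 fold change was 1.07 ± 0.16 (SE, edgeR adjusted p = 0.000508) for KPC against control and -0.98 ± 0.16 (SE, edgeR adjusted p = 0.000679) for KPC+GnP against KPC. Uvrag, a subunit of the form of the complex that acts on endosomes, had 14.6, 15.5, 12.4 and 17.5 CPM in KPC+GnP muscle, 18.5, 44.7, 30.0 and 34.9 CPM in KPC muscle, and 14.9, 11.7, 15.2 and 14.0 CPM in control muscle. KPC library 2 was highest, library 1 lowest of its group, and neither comparison with the KPC group showed overlap. It rose by 1.2 ± 0.22 (SE, edgeR adjusted p = 0.0011) and fell with treatment, at -1.10 ± 0.22 (SE, edgeR adjusted p = 0.00169). Atg14, the subunit that directs the complex to sites of autophagosome formation, changed by 0.66 ± 0.18 (SE, edgeR adjusted p = 0.00956) in KPC against control and -0.69 ± 0.18 (SE, edgeR adjusted p = 0.00777) with treatment, although KPC library 1 lay within the range of both other groups. Becn1, the scaffold of both forms, was not called, at 0.01 ± 0.10 in KPC against control and -0.13 ± 0.10 with treatment. Becn1 shares 3104 exonic bases with Cntd1 on the opposite strand, and whether counting used strand is not given.

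All 5 genes of membrane source and lipid transfer rose in KPC muscle and fell with treatment. Wipi2, which reads the lipid made by Pik3c3 and recruits Atg16l1, had 35.8, 30.9, 32.1 and 36.8 CPM in KPC+GnP muscle, 42.5, 103, 77.1 and 78.4 CPM in KPC muscle, and 36.1, 35.8, 37.8 and 37.9 CPM in control muscle. The KPC group was high in libraries 2 to 4, and library 1 was between them and the controls. Its log2 fold changes were 1.03 ± 0.20 (SE, edgeR adjusted p = 0.00152) in KPC against control muscle and -1.15 ± 0.20 (SE, edgeR adjusted p = 0.000884) in KPC+GnP against KPC muscle. Atg9a, the transmembrane protein of the vesicles that seed the membrane, had 132, 147, 122 and 129.8 CPM in KPC+GnP muscle, 196, 188, 203 and 210.3 CPM in KPC muscle, and 154, 155, 140.2 and 156 CPM in control muscle. In contrast to most members, the 4 KPC libraries were alike and library 1 was as high as the rest. Atg9a rose by 0.40 ± 0.09 (SE, edgeR adjusted p = 0.00349) and fell with treatment, at -0.59 ± 0.09 (SE, edgeR adjusted p = 0.00056). The call for KPC against control was lost with library totals (edgeR adjusted p 0.0531) and at a minimum of 1.5-fold. Atg2a and Atg2b, which carry lipids into the growing membrane, and Wipi1 ranged from 0.57 to 0.73 in KPC against control and between -0.72 and -0.52 in KPC+GnP against KPC muscle. KPC library 1 was not above the highest control for any of these 3 genes. Wipi1 lost its call for KPC against control when control library 1, 3 or 4 or KPC library 2 or 3 was left out (highest edgeR adjusted p 0.098), and its call with treatment was kept in only 4 of 12 such fits.

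Of 10 conjugation enzymes, 3 rose and 2 fell in KPC muscle and 5 were not called, with a median of 0.11, shares near those of all genes (27.5% and 22.1%). Atg7, the enzyme that activates both ubiquitin-like proteins, had 7.30, 6.92, 6.36 and 6.30 CPM in KPC+GnP muscle, 7.76, 14.1, 13.6 and 15.3 CPM in KPC muscle, and 8.08, 7.04, 8.27 and 6.62 CPM in control muscle. The KPC group was high except for library 1, which lay within the control range. Its log2 fold changes were 0.76 ± 0.18 (SE, edgeR adjusted p = 0.00518) in KPC against control muscle and -0.92 ± 0.19 (SE, edgeR adjusted p = 0.00196) in KPC+GnP against KPC muscle. Atg3, which transfers ATG8 proteins to lipid, had 33.9, 32.2, 35.1 and 29.0 CPM in KPC+GnP muscle, 34.7, 43.2, 38.6 and 35.4 CPM in KPC muscle, and 30.4, 29.3, 28.7 and 25.8 CPM in control muscle. Every KPC library was above every control library, but KPC+GnP libraries also reached into the KPC range. Atg3 rose by 0.41 ± 0.10 (SE, edgeR adjusted p = 0.00617), and the treatment value of -0.22 ± 0.10 (SE, edgeR adjusted p = 0.0876) was not called. With library totals its call was lost (edgeR adjusted p 0.0968). Atg4b, a protease that primes ATG8 proteins, had 18.3, 17.4, 16.9 and 17.8 CPM in KPC+GnP muscle, 18.8, 32.0, 28.2 and 29.7 CPM in KPC muscle, and 21.8, 17.7, 18.2 and 18.2 CPM in control muscle. Control library 1 was above KPC library 1, and the treated libraries were below all KPC libraries. The values were 0.52 ± 0.15 (SE, edgeR adjusted p = 0.0109) in KPC against control muscle and -0.63 ± 0.15 (SE, edgeR adjusted p = 0.00409) in KPC+GnP against KPC muscle, and both calls were lost with library totals (edgeR adjusted p 0.0779 and 0.0602).

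Atg10 and Atg4c went the other way. Atg10, which transfers Atg12 to Atg5, had 10.5, 9.61, 9.75 and 9.85 CPM in KPC+GnP muscle, 9.30, 5.02, 4.79 and 5.20 CPM in KPC muscle, and 9.10, 10.7, 9.08 and 9.67 CPM in control muscle. KPC libraries 2 to 4 were at about the same low level and library 1 was within the control range. It fell, at -0.67 ± 0.19 (SE, edgeR adjusted p = 0.0124), in KPC against control and rose by 0.71 ± 0.19 (SE, edgeR adjusted p = 0.00898) with treatment. Atg4c, a further protease of the Atg4 family, had 8.58, 10.97, 10.1 and 9.45 CPM in KPC+GnP muscle, 8.77, 4.01, 7.04 and 7.81 CPM in KPC muscle, and 10.4, 9.95, 11.3 and 10.1 CPM in control muscle. KPC library 2 was the lowest, and all KPC libraries lay below all controls. Its change was -0.59 ± 0.19 (SE, edgeR adjusted p = 0.0231), a call lost without control library 3 (edgeR adjusted p 0.0596), and 0.50 ± 0.20 (SE, edgeR adjusted p = 0.0472) with treatment, a call kept in only 1 of 12 fits that left out a library. Atg4a, Atg4d, Atg5, Atg12 and Atg16l1 were not called in KPC against control muscle, between -0.16 for Atg4a and 0.17 for Atg5. Of these, Atg16l1, which places the conjugation machinery on the membrane, fell with treatment, at -0.29 ± 0.10 (SE, edgeR adjusted p = 0.0286), a call lost in 4 of 12 fits that left out a library. Atg5, Atg12 and Atg16l1, which act as a single complex, were without a call in KPC muscle, while Atg7 and Atg3 rose. No difference between these genes was tested.

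All 5 ATG8 genes rose in KPC muscle and fell with treatment. Map1lc3b (LC3B, at chr8:121590361-121598760 of GRCm38), whose lipid-bound form is the usual marker of autophagosomes, had 139.5, 121, 125 and 116 CPM in KPC+GnP muscle, 188, 522, 386 and 424 CPM in KPC muscle, and 139.6, 123, 126 and 118 CPM in control muscle. Libraries 2 to 4 of the KPC group stood far above the rest, and library 1 was above all controls. Its log2 fold changes were 1.58 ± 0.23 (SE, edgeR adjusted p = 0.00044) for KPC against control and -1.60 ± 0.23 (SE, edgeR adjusted p = 0.000465) for KPC+GnP against KPC. Gabarap had 118, 111, 116 and 111 CPM in KPC+GnP muscle, 157, 227, 174 and 211 CPM in KPC muscle, and 119, 116, 115 and 111 CPM in control muscle. The KPC libraries were well apart from both other groups, and control and treated libraries covered nearly the same range. Gabarap rose by 0.74 ± 0.11 (SE, edgeR adjusted p = 0.00056) and fell with treatment, at -0.76 ± 0.11 (SE, edgeR adjusted p = 0.000526).

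Gabarapl1 (at chr6:129533160-129542346 of GRCm38), a GABARAP relative, had 71.5, 41.6, 61.8 and 49.8 CPM in KPC+GnP muscle, 56.0, 401, 164 and 241 CPM in KPC muscle, and 56.3, 50.5, 60.5 and 49.96 CPM in control muscle. KPC library 2 was highest, whereas library 1 lay inside the control range, so this gene overlapped between groups in spite of the largest ATG8 change. That change was 1.99 ± 0.42 (SE, edgeR adjusted p = 0.00248) for KPC against control and -1.94 ± 0.42 (SE, edgeR adjusted p = 0.00283) for KPC+GnP against KPC, with the widest errors of all members in muscle. Gabarapl1 overlaps 570 exonic bases of 1700101I11Rik on the opposite strand. In all, 11 members share exonic bases with an opposite-strand gene, among them Uvrag (1589), Atg4d (1405), Sqstm1 (580) and Bnip3 (504). Another gene on the same strand overlaps 2 members, among them Atg9a (1832 bases of Gm29253). Gabarapl2 and Map1lc3a changed less, by 0.31 ± 0.09 and 0.35 ± 0.11 in KPC against control and by -0.53 ± 0.09 and -0.66 ± 0.11 with treatment. Both calls for KPC against control were lost when libraries were scaled by their totals alone, and that of Map1lc3a also without control library 2 or 4 or KPC library 4 (highest edgeR adjusted p 0.0621).

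**Figure D2:**
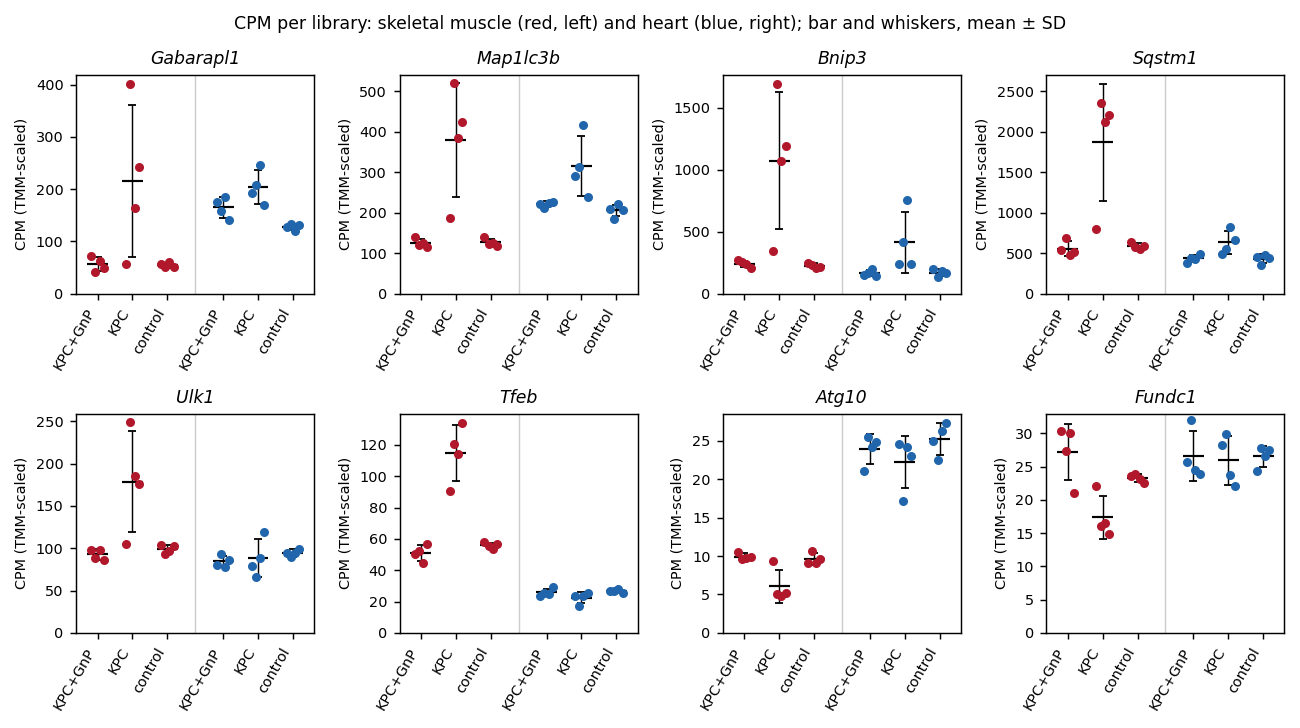
TMM-scaled CPM of 8 autophagy genes, 1 point per library, with skeletal muscle in red on the left and heart in blue on the right of each panel; groups run KPC+GnP, KPC and control, and the bar and whiskers give the mean and SD of 4 libraries. The KPC muscle mean stands above the other muscle means for the first 6 genes, with 1 low library in most, and below them for Atg10 and Fundc1, and in heart the KPC mean is highest for Gabarapl1, Map1lc3b, Bnip3 and Sqstm1.

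The 4 general cargo receptors rose in KPC muscle and fell with treatment. Sqstm1 (p62, at chr11:50199366-50210827 of GRCm38), which links ubiquitin-tagged cargo to ATG8 proteins, had 536, 684, 476 and 519 CPM in KPC+GnP muscle, 795, 2357, 2119 and 2211 CPM in KPC muscle, and 642, 572, 556 and 586 CPM in control muscle. KPC libraries 2 to 4 were close to each other, and library 1 was much lower but above all controls. Its log2 fold changes were 1.67 ± 0.27 (SE, edgeR adjusted p = 0.00067), or 3.18-fold, in KPC against control and -1.76 ± 0.27 (SE, edgeR adjusted p = 0.000546) in KPC+GnP against KPC muscle. Calcoco1, a receptor for the endoplasmic reticulum and Golgi, had 100.3, 94.4, 103 and 87.5 CPM in KPC+GnP muscle, 136, 269.7, 195 and 202 CPM in KPC muscle, and 97.2, 87.2, 88.5 and 89.8 CPM in control muscle. No KPC library overlapped either group, with library 2 highest. It rose by 1.15 ± 0.16 (SE, edgeR adjusted p = 0.000415) and fell with treatment, at -1.06 ± 0.16 (SE, edgeR adjusted p = 0.000552).

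Nbr1, a receptor that shares its ubiquitin binding with Sqstm1, had 113, 124, 111 and 106 CPM in KPC+GnP muscle, 122, 316, 217 and 235 CPM in KPC muscle, and 119.5, 112, 107 and 115 CPM in control muscle. Library 1 of the KPC group lay barely above the highest control and under the highest treated library. The changes were 0.98 ± 0.21 (SE, edgeR adjusted p = 0.00264) in KPC against control muscle and -0.97 ± 0.21 (SE, edgeR adjusted p = 0.00272) in KPC+GnP against KPC muscle. Optn, a receptor for mitochondria and bacteria, changed by 0.73 ± 0.14 (SE, edgeR adjusted p = 0.0014) in KPC against control and -0.60 ± 0.14 (SE, edgeR adjusted p = 0.00373) with treatment.

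Of the mitophagy genes, Bnip3, Bnip3l and Pink1 rose in KPC muscle and Fundc1 fell. Bnip3 (at chr7:138890836-138909519 of GRCm38), a receptor in the outer mitochondrial membrane, had 268, 252, 237 and 207 CPM in KPC+GnP muscle, 343, 1692, 1071 and 1194 CPM in KPC muscle, and 249.6, 231, 209.7 and 211 CPM in control muscle. KPC library 2 was highest and library 1 the lowest of its group, still above all controls. Bnip3 had the largest change of the 38 genes in muscle, 2.25 ± 0.34 (SE, edgeR adjusted p = 0.000515) or 4.77-fold for KPC against control, and -2.16 ± 0.34 (SE, edgeR adjusted p = 0.000611) with treatment. Bnip3l (NIX), a relative of Bnip3 that also serves the removal of mitochondria from maturing red cells, had 66.9, 67.4, 66.0 and 60.2 CPM in KPC+GnP muscle, 83.8, 218, 127 and 147 CPM in KPC muscle, and 63.5, 62.5, 58.8 and 60.2 CPM in control muscle. The KPC group was above both others with no overlap. Its values were 1.23 ± 0.21 (SE, edgeR adjusted p = 0.00089) in KPC against control and -1.14 ± 0.21 (SE, edgeR adjusted p = 0.00119) with treatment, and a pseudogene copy, Bnip3l-ps, could share its reads. Alas2, a red cell gene, also rose in KPC against control muscle, with 5.17 to 9.09 CPM in KPC+GnP, 2.5 to 11.9 CPM in KPC and 2.03 to 3.07 CPM in control muscle, and its part in the Bnip3l values was not tested.

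Pink1, a kinase that marks damaged mitochondria, had 565, 469, 544 and 583 CPM in KPC+GnP muscle, 877, 808, 786 and 794 CPM in KPC muscle, and 652, 628, 607 and 498 CPM in control muscle. Like Atg9a it showed no low KPC library, and library 1 was the highest. It rose by 0.45 ± 0.11 (SE, edgeR adjusted p = 0.00619) and fell with treatment, at -0.60 ± 0.11 (SE, edgeR adjusted p = 0.00145). Fundc1, a receptor of mitochondria under low oxygen, had 30.3, 27.4, 30.0 and 21.1 CPM in KPC+GnP muscle, 22.1, 16.1, 16.5 and 14.8 CPM in KPC muscle, and 23.6, 23.98, 23.2 and 22.6 CPM in control muscle. KPC libraries 2 to 4 were low, library 1 was just under the controls, and the treated libraries were mostly above them. Its change was -0.42 ± 0.14 (SE, edgeR adjusted p = 0.0257) for KPC against control, a call lost without any of 6 libraries in turn (highest edgeR adjusted p 0.0828), and 0.65 ± 0.14 (SE, edgeR adjusted p = 0.00315) with treatment.

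The 2 transcription factors differed in their calls. Tfeb had 50.3, 52.2, 44.4 and 56.6 CPM in KPC+GnP muscle, 90.9, 120.4, 114 and 134 CPM in KPC muscle, and 57.7, 55.2, 53.8 and 56.5 CPM in control muscle. Every KPC library, library 1 included, was far above every other muscle library. Tfeb rose by 1.04 ± 0.12 (SE, edgeR adjusted p = 0.000307), the smallest p of the 38 genes, and fell with treatment, at -1.17 ± 0.12 (SE, edgeR adjusted p = 0.000321). Tfe3, its relative, had 11.6, 11.9, 11.1 and 11.7 CPM in KPC+GnP muscle, 8.95, 12.7, 10.9 and 11.9 CPM in KPC muscle, and 10.3, 10.1, 10.9 and 10.5 CPM in control muscle. The groups overlapped except that all treated libraries were above all controls. Tfe3 was not called, at 0.085 ± 0.12 in KPC against control (edgeR adjusted p = 0.561) and 0.063 ± 0.12 with treatment (edgeR adjusted p = 0.665).

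**Figure D3:**
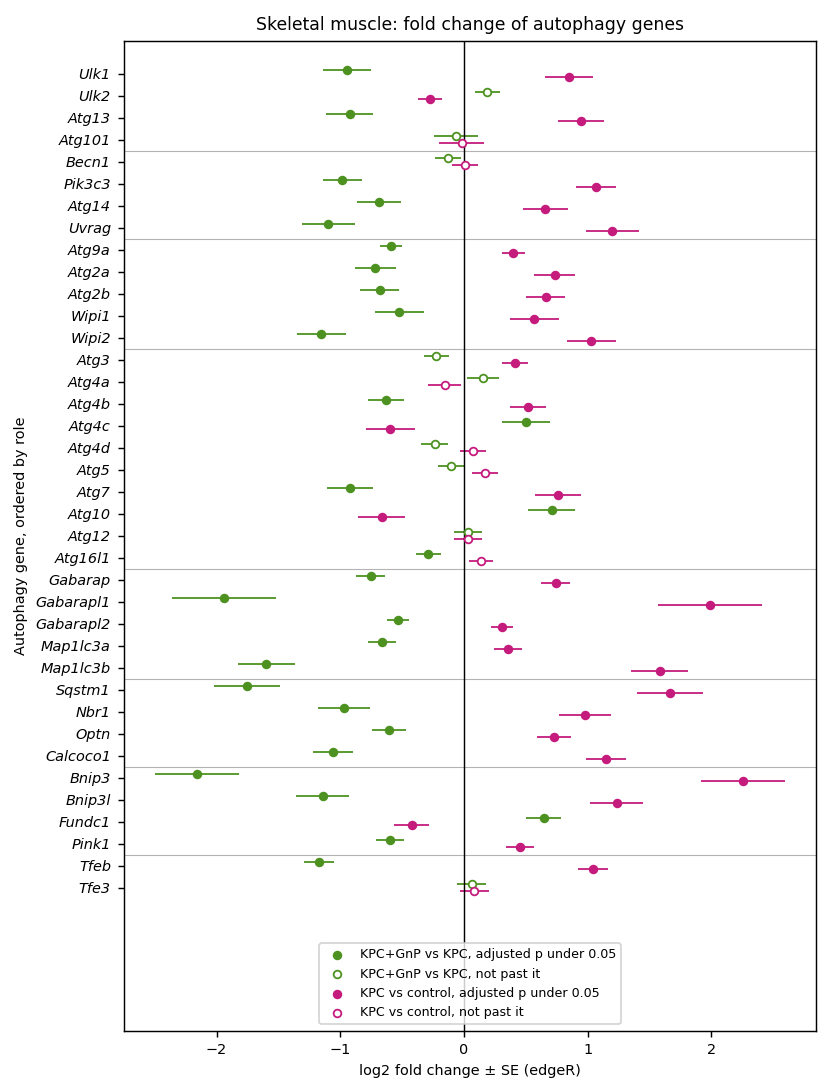
Log2 fold change with its SE for the 38 autophagy genes in skeletal muscle, for KPC+GnP against KPC (green) and KPC against control (magenta); filled points had an edgeR adjusted p under 0.05 and lines separate role classes. The 2 comparisons share the KPC libraries. Of the genes, 26 lie right of 0 and filled for KPC against control, and 26 lie left of 0 and filled for KPC+GnP against KPC.

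KPC+GnP against control muscle gave no call: 0 of 38 members and 0 of all 12760 genes passed edgeR's threshold, or 0% of those tested. Unadjusted p was under 0.05 for 2 members, Map1lc3a at -0.31 ± 0.11 and Gabarapl2 at -0.23 ± 0.09, and for 413 of all genes, and DESeq2 called 1 gene in all and none of the members. The members' log2 fold changes ran from -0.31 to 0.22, with a median of -0.015 against 0.016 over all genes. Treated libraries were all above the controls for 1 member, Tfe3 (1.93% of all genes), and all below them for 3 members, Atg16l1, Gabarapl2 and Map1lc3a (2.47% of all genes). A missing call does not show equal levels: for Gabarapl1 the value was 0.048 ± 0.41 and for Bnip3 0.10 ± 0.33, each with its SE, which is larger than the value.

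The KPC muscle libraries were not alike, and 1 of them stood nearer to the controls. KPC muscle library 1 was above all 4 controls for 23 of the 38 genes, against 29, 29 and 30 in libraries 2, 3 and 4, and for 33.5% of all genes, against 41.6%, 40.6% and 40.8%. Its members' median log2 ratio to the control mean was 0.19, against 0.90, 0.57 and 0.63 in the others. For Gabarapl1, Atg2b, Atg7, Atg14 and Atg10 it lay within or next to the control range, whereas for Tfeb, Atg9a and Pink1 it was clearly above it. This library came from the animal numbered 141, which also gave KPC heart library 4. Its column in the count table carries an extra final digit after the sample's title, but it is the only muscle column of that animal, and its counts match the FPKM column that bears the title exactly (SD over libraries of at most 0.0047 per gene on the log2 scale). Without it, 26 members rose and 4 fell in KPC against control muscle, and 4 rose and 27 fell in KPC+GnP against KPC muscle, where more genes in all were called (7993 against 6336, and 8056 against 6357). A fit without KPC libraries 1 and 2, the lowest and the highest by the members' median log2 ratio, was not planned beforehand. In it, 27 members rose and 4 fell in KPC against control muscle, where 3833 of all genes rose and 3546 fell. In KPC+GnP against KPC muscle, 3 members rose and 26 fell, where 3555 of all genes rose and 3843 fell. Scaling by library totals in place of TMM moved the all-gene median by more than 0.1, to -0.17 for KPC against control and 0.27 for KPC+GnP against KPC muscle, while the members' median stayed above it in the first, at 0.46, and below it in the second, at -0.40. The counts were then 20 members higher and 4 lower for KPC against control, and 5 higher and 20 lower for KPC+GnP against KPC. The calls lost were those of Atg9a, Wipi1, Atg3, Atg4b, Gabarapl2 and Map1lc3a in KPC against control, and those of Atg14, Atg2b, Wipi1, Atg4b, Atg16l1 and Optn in KPC+GnP against KPC. All genes called then split into 2308 higher and 4064 lower for KPC against control (3512 and 2824 with TMM) and 4897 higher and 1782 lower for KPC+GnP against KPC (2945 and 3412 with TMM).

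In heart few members were called. In KPC against control hearts, 3 of 38 members rose and 0 fell, where 4.95% of all 13846 genes tested rose and 4.38% fell (9.34% in either direction), and unadjusted p was under 0.05 for 13 members and for 4241 of all genes, a like share. The median log2 fold change was 0.054 over the members and 0.022 over all genes. The members that rose were Gabarapl1, Map1lc3b and Bnip3. Gabarapl1 had 176, 158, 185 and 141 CPM in KPC+GnP hearts, 192, 208, 246 and 169 CPM in KPC hearts, and 127, 133, 119 and 131 CPM in control hearts. All KPC hearts were above all controls, and the treated hearts were above the controls and reached into the KPC range. Its log2 fold change was 0.68 ± 0.13 (SE, edgeR adjusted p = 0.0159) in KPC against control hearts and -0.31 ± 0.13 (SE, edgeR adjusted p = 0.199) in KPC+GnP against KPC hearts. Map1lc3b had 222, 211, 225 and 227 CPM in KPC+GnP hearts, 292, 313, 418 and 239.8 CPM in KPC hearts, and 209, 186, 221 and 207 CPM in control hearts. KPC library 3 was highest, and treated hearts were below all KPC hearts. It rose by 0.62 ± 0.15 (SE, edgeR adjusted p = 0.0303), and the treatment value of -0.51 ± 0.15 (SE, edgeR adjusted p = 0.0875) was not called. Bnip3 had 152, 167, 199.9 and 139.9 CPM in KPC+GnP hearts, 239, 421, 755 and 238 CPM in KPC hearts, and 201, 132, 181 and 163 CPM in control hearts. The KPC hearts spread over a wide range, with library 3 far above and libraries 1 and 4 just above the controls. Bnip3 rose by 1.29 ± 0.32 (SE, edgeR adjusted p = 0.0354), and its treatment value was -1.33 ± 0.33 (SE, edgeR adjusted p = 0.0578).

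These heart calls rested on few libraries. None of the 3 was kept in every fit that left out a library: leaving out control library 1 or 3 removed all of them, whereas leaving out KPC heart library 4, of animal 141, gave 8 members higher and 6 lower, and 3554 genes in all in place of 1293. DESeq2 called 5 members higher and 1 lower, and 1415 of all genes higher and 1084 lower. Scaling by library totals gave 7 members higher, with 1373 of all genes higher and 333 lower. A fit of the 2 groups alone gave 1 member higher, with 136 of all genes higher and 93 lower. Library totals moved the all-gene median to 0.17 and the members' median to 0.20. Sqstm1 had 383, 434, 426 and 494 CPM in KPC+GnP hearts, 495, 557, 821 and 657 CPM in KPC hearts, and 451, 357, 477 and 444 CPM in control hearts. All KPC hearts were above all other hearts, but its value of 0.55 ± 0.16 (SE, edgeR adjusted p = 0.054) was not called. Groups did not overlap for 4 members with KPC hearts above controls (5.97% of all genes) and for 2, Ulk2 and Atg4d, with KPC hearts below them (8.43% of all genes). Ulk2 was at -0.36 ± 0.11 (SE, edgeR adjusted p = 0.0606) and Atg4d at -0.46 ± 0.20 (SE, edgeR adjusted p = 0.143).

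Bnip3l had the widest error of the members in heart. It had 557, 182, 169.6 and 130.4 CPM in KPC+GnP hearts, 215, 275, 268 and 83.7 CPM in KPC hearts, and 78.7, 89.2, 79.2 and 95.8 CPM in control hearts. Treated library 1 was far above every other heart, and KPC library 4 was within the control range. Neither KPC against control, at 1.29 ± 0.45 (SE, edgeR adjusted p = 0.0844), nor KPC+GnP against control, at 1.60 ± 0.45 (SE, edgeR adjusted p = 0.0904), was called. Alas2, which makes haem in red cell precursors and was the only 1 of 4 erythroid markers in the table, had 2629, 466, 498 and 297 CPM in KPC+GnP hearts, 737, 825, 1010.1 and 80.3 CPM in KPC hearts, and 37.1, 103, 93.9 and 189.6 CPM in control hearts. The same treated library and the same KPC library were the highest and lowest of their groups for Alas2 as for Bnip3l. The part of red cells in the Bnip3l values was not tested. Other markers also differed between the hearts: 6 of 6 neutrophil markers in the table rose in KPC against control hearts, with summed levels of 6.99 to 29.2 CPM in KPC+GnP, 19.6 to 261 CPM in KPC and 2.83 to 9.44 CPM in control hearts, and 5 of 9 macrophage markers rose, with summed levels of 381 to 700.2 CPM in KPC+GnP, 396 to 2302 CPM in KPC and 321 to 567 CPM in control hearts. Fat markers rose in treated hearts, 2 of 3 of brown fat and 1 of 4 of white fat in KPC+GnP against KPC, and 2 of 3 and 2 of 4 in KPC+GnP against control. Summed brown fat markers ran from 355 to 936 CPM in KPC+GnP, 223 to 492 CPM in KPC and 303 to 429 CPM in control hearts, and white fat markers from 507 to 2296 CPM in KPC+GnP, 931 to 1310.4 CPM in KPC and 551 to 989 CPM in control hearts. Summed atrial markers, none of 4 called, ran from 1421 to 19350 CPM in KPC+GnP, 42.5 to 929 CPM in KPC and 118 to 3316 CPM in control hearts. Their part in the members' values was not tested.

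Treatment gave no call among the members in heart. In KPC+GnP against KPC hearts, 0 of 38 members rose and 0 fell, where 1.13% of all genes rose and 0.412% fell, and 6 members and 2885 of all 13846 genes had an unadjusted p under 0.05. DESeq2 called 3 members lower, with 613 of all genes higher and 523 lower. Leaving out KPC heart library 4 gave 2 members lower with edgeR, with 576 of all genes higher and 616 lower. The largest value was that of Bnip3, and all treated hearts were below all KPC hearts for 3 members, Bnip3, Map1lc3b and Sqstm1 (3.8% of all genes), and above them for 1, Atg4b (4.3%). In KPC+GnP against control hearts, 0 members rose and 0 fell, where 0.816% of all genes rose and 0.412% fell. There 6 members and 2755 of all genes had an unadjusted p under 0.05. DESeq2 called 1 member higher and 1 lower, with 632 of all genes higher and 424 lower. All treated hearts were above all controls for Bnip3l, Gabarapl1 and Tfe3 (7.28% of all genes) and below them for Ulk2 and Wipi1 (8.6%). The 3 heart comparisons share their groups pairwise and are not independent.

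The difference between the tissues was tested directly in a fit of all 24 libraries and 14509 genes. Values for a single tissue, here and in the next paragraph, are from the fit of that tissue alone. They therefore do not subtract exactly to the differences given. For KPC against control, 16 of 38 members had a larger log2 fold change in muscle than in heart and 0 a smaller one, where 12.4% of all genes were higher and 13.4% lower. The members' median difference was 0.50, against -0.13 over all genes. Tfeb differed most clearly: its log2 fold change was 1.04 ± 0.12 in muscle and -0.24 ± 0.13 in heart, a difference of 1.2 ± 0.17 (SE, edgeR adjusted p = 0.00058). The muscle libraries separated fully for Tfeb, while in heart it had 23.7, 17.1, 23.7 and 25.8 CPM in KPC hearts and 26.9, 26.5, 27.9 and 25.3 CPM in control hearts. KPC heart library 2 was low and library 4 lay within the control range. Nbr1 differed by 1.04 ± 0.23 (SE, edgeR adjusted p = 0.00355), with -0.15 ± 0.093 in heart, and Calcoco1 by 1.00 ± 0.22 (SE, edgeR adjusted p = 0.00368), with 0.067 ± 0.15 in heart. All 5 genes of membrane source and lipid transfer were among the 16, as were Ulk1, Pik3c3, Uvrag, Atg4b, Atg7, Gabarapl1, Map1lc3b and Sqstm1. Bnip3, which rose in both tissues, was not called, at 0.88 ± 0.48 (SE, edgeR adjusted p = 0.172), nor was Bnip3l, at -0.14 ± 0.51 (SE, edgeR adjusted p = 0.864).

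For KPC+GnP against KPC, 17 members had a lower log2 fold change in muscle than in heart and 1, Fundc1, a higher one, where 13.2% of all genes were lower and 12.5% higher. The median difference was -0.52 over the members and 0.063 over all genes. Tfeb again had the smallest p, at -1.32 ± 0.17 (SE, edgeR adjusted p = 0.000177), with -1.17 ± 0.12 in muscle and 0.19 ± 0.13 in heart. Wipi2 differed by -1.28 ± 0.24 (SE, edgeR adjusted p = 0.00161) and Atg4b by -0.83 ± 0.16 (SE, edgeR adjusted p = 0.00205); both had positive, uncalled values in KPC+GnP against KPC hearts, at 0.18 ± 0.13 and 0.24 ± 0.086. Fundc1 differed by 0.65 ± 0.20 (SE, edgeR adjusted p = 0.0211).

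These differences between tissues depended on the libraries fitted and on scaling. With the animal as a replicate block in the 8 animals that gave both tissues, 0 members were called for either difference, and 1 and 25 genes in all; the same 16 libraries without the block gave 1 member each and 127 and 129 genes. These 16 libraries hold fewer than 4 per group and tissue, so a missing call there does not show equal responses. With all 24 libraries in limma voom, 14 members were higher for KPC against control, with the animal as a random block and without it. Of all genes, 1591 were higher and 1597 lower with that block, and 1554 higher and 1540 lower without it. For KPC+GnP against KPC, 2 members were higher and 16 lower with that block, and 2 higher and 14 lower without it. Of all genes, 1551 were higher and 1654 lower with it, and 1511 higher and 1620 lower without it. These limma voom fits were not planned beforehand. Scaling by library totals gave 6 members higher and 5 lower, and 3 higher and 10 lower. All genes then split into 755 higher and 3436 lower, and 2997 higher and 961 lower. The all-gene medians moved to -0.38 and 0.27, with the members' medians at 0.29 and -0.36. Leaving out KPC muscle library 1 gave 19 members higher and 4 lower, and 2 higher and 22 lower. All genes then split into 2635 higher and 3169 lower, and 2967 higher and 2729 lower. In the 24 fits that left out a library, the calls of Atg7 and Gabarapl1 for KPC against control were kept in only 3 and 4 fits, and those of Atg2a, Gabarap and Bnip3l for KPC+GnP against KPC in only 6 each.

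**Figure D4:**
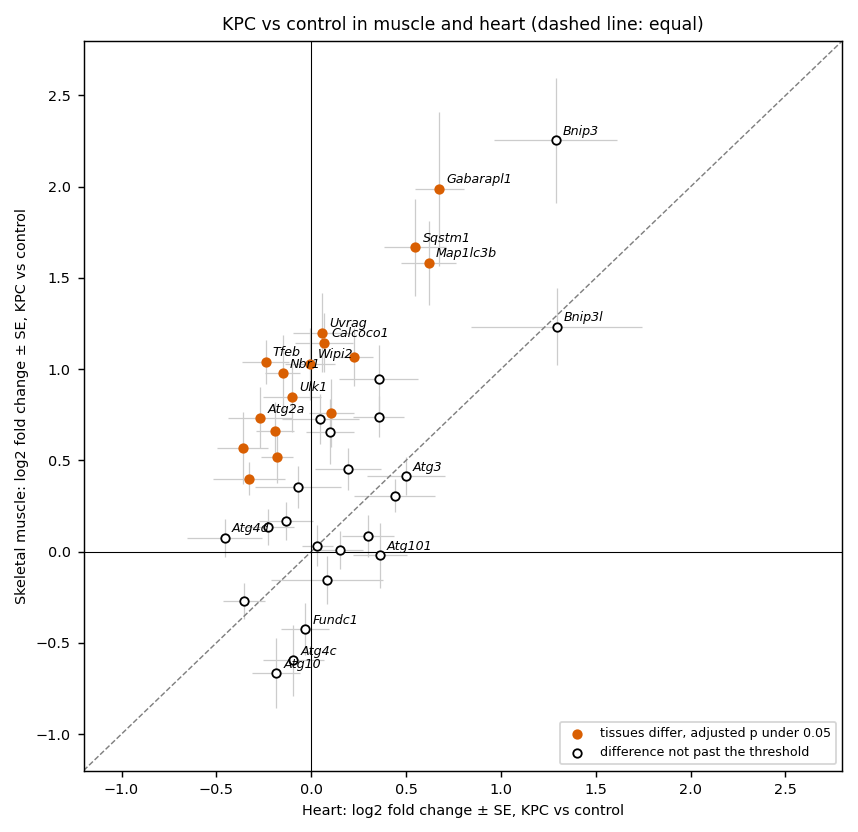
Log2 fold change of KPC against control with its SE for each of the 38 autophagy genes, in skeletal muscle (vertical) against heart (horizontal); the dashed line marks equal changes and filled points are the 16 genes whose difference between tissues had an edgeR adjusted p under 0.05. Filled points all lie above the line, with Tfeb, Nbr1, Ulk1, Atg4b and all 5 genes of membrane source and lipid transfer left of 0 in heart, while Bnip3l lies near the line.

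Resting levels also differed between control muscle and control heart, but these values depend on how libraries of 2 tissues are scaled. With TMM, 18 of 38 members were higher in muscle and 3 lower. Of all genes, 29.2% were higher and 30.3% lower (59.5% in either direction). With library totals alone 7 members were higher and 18 lower, where 1782 of all 14509 genes were higher and 8299 lower. Between the scalings 18 members changed sign, 8 of them called with TMM. The members' median log2 ratio of muscle to heart was 0.28 with TMM and -0.36 with library totals, against all-gene medians of -0.064 and -0.70. Higher in muscle with both scalings were, among others and with TMM values, Tfeb at 1.83 ± 0.12 (SE, edgeR adjusted p = 2.64e-11), Atg4a at 1.77 ± 0.23 (SE, edgeR adjusted p = 1.04e-06), Atg9a at 1.55 ± 0.15 (SE, edgeR adjusted p = 1.46e-08) and Ulk2 at 1.48 ± 0.11 (SE, edgeR adjusted p = 9.66e-11). With library totals their values were 1.19, 1.13, 0.91 and 0.84. Map1lc3a was lower in muscle, at -0.98 ± 0.19 (SE, edgeR adjusted p = 0.000112), as were Atg10 at -0.62 ± 0.17 (SE, edgeR adjusted p = 0.00337) and Atg7 at -0.44 ± 0.15 (SE, edgeR adjusted p = 0.0162), and these 3 were also lower with library totals, at -1.61, -1.26 and -1.07. Reads of Atg4a could be shared with a pseudogene copy, Atg4a-ps.

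Levels between genes can be compared per transcript length in FPKM, taken out of the deposited log2. In control muscle the most abundant members were Sqstm1 at 382 ± 26.4, Pink1 at 332 ± 37.6 and Bnip3 at 169 ± 15.2 FPKM (SD, n = 4), and the least abundant were Tfe3 at 3.82 ± 0.0858 and Atg7 at 2.47 ± 0.234 FPKM. Control heart had Map1lc3a first at 230.1 ± 24.3 and Pink1 second at 193 ± 12.6 FPKM, with Atg4c lowest at 1.82 ± 0.173 FPKM. Sqstm1 at 165 ± 19.8 and Gabarap at 162 ± 14.7 FPKM in control heart did not differ beyond their spread.

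The make-up of the ATG8 pool follows from the same scale. Summed, the 5 ATG8 transcripts reached 410.4 ± 32.1 FPKM in KPC+GnP muscle, 860.3 ± 221 FPKM in KPC muscle and 451 ± 23.8 FPKM in control muscle (SD, n = 4). The 4 KPC libraries had 593, 1117, 797 and 934 FPKM, all above the highest treated library at 452 and the highest control at 485 FPKM. Gabarapl1 made up 11.7, 7.90, 11.4 and 8.78% of the sum in KPC+GnP muscle, 6.92, 25.2, 14.5 and 18.1% in KPC muscle and 8.64, 8.54, 9.95 and 8.70% in control muscle. KPC library 1 had the lowest share of all 12 libraries, and the other KPC libraries the 3 highest. The share of Map1lc3b was 23.1 ± 1.28% in KPC+GnP, 31.6 ± 5.12% in KPC and 21.6 ± 0.403% in control muscle, while that of Map1lc3a was 22.5 ± 2.56% in KPC+GnP, 17.7 ± 5.81% in KPC and 25.9 ± 0.595% in control muscle. These shares were not tested. In control heart Map1lc3a made up 39.1 ± 1.39% of the sum, and the 5 genes summed to 622 ± 39.7 FPKM in KPC+GnP, 726 ± 135 FPKM in KPC and 587 ± 42.7 FPKM in control hearts, where the groups overlapped.

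**Figure D5:**
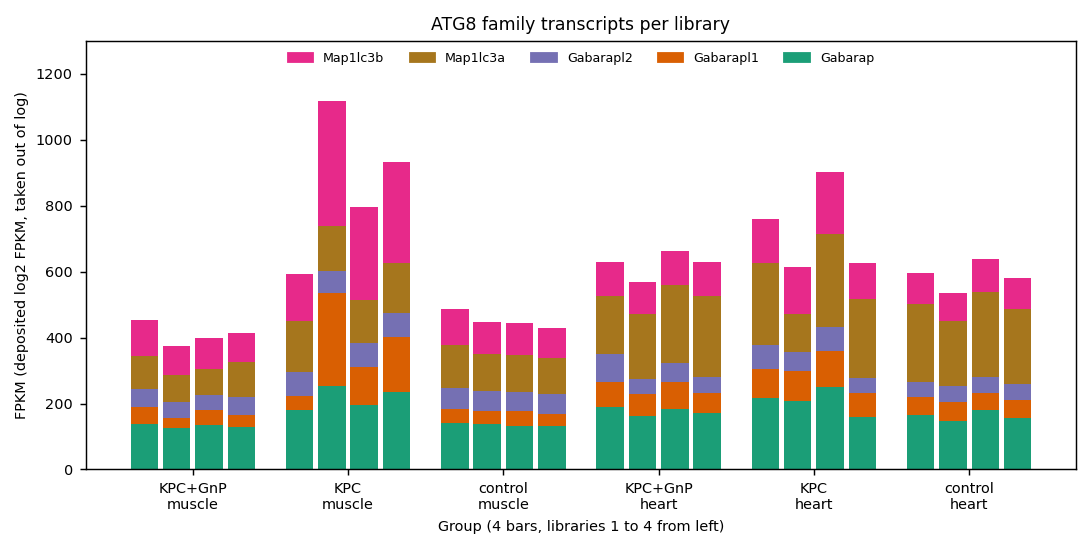
FPKM of the 5 ATG8 genes stacked per library, with libraries 1 to 4 of each group from left to right, for KPC+GnP, KPC and control in skeletal muscle and then in heart. KPC muscle sums are 593 to 1117 FPKM against 430.1 to 485 FPKM in control muscle. The layers of Gabarapl1 and Map1lc3b are each thicker in KPC muscle libraries 2 to 4 than in the other muscle libraries. Map1lc3a is the thickest layer in most heart libraries.

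Genes around the machinery were read from 2 further lists, also chosen with earlier results of these data known. Of 27 other autophagy genes, 25 were in the tables and 24 were tested in muscle; 13 rose and 0 fell in KPC against control muscle (27.5% and 22.1% of all genes), with a median of 0.34, and 0 rose and 15 fell in KPC+GnP against KPC muscle (23.1% and 26.7% of all genes), with a median of -0.41. Zfyve1, which marks the membrane site where autophagosomes form, had 29.7, 30.3, 30.8 and 26.3 CPM in KPC+GnP muscle, 42.9, 120.3, 110.0 and 121 CPM in KPC muscle, and 28.5, 31.3, 26.0 and 25.7 CPM in control muscle. All KPC libraries were above all others, library 1 by the least, and the change was 1.82 ± 0.25 (SE, edgeR adjusted p = 0.000392). Tollip, an adaptor for ubiquitin-tagged cargo, had 51.4, 52.7, 48.1 and 49.5 CPM in KPC+GnP muscle, 63.7, 236, 136 and 154 CPM in KPC muscle, and 54.4, 50.6, 51.2 and 51.4 CPM in control muscle, again with library 1 lowest among the KPC libraries, and rose by 1.51 ± 0.27 (SE, edgeR adjusted p = 0.00113). Tax1bp1, a cargo receptor, rose by 1.32 ± 0.24 (SE, edgeR adjusted p = 0.00117). In KPC against control hearts 1 of 25 rose and 1 fell, near the 4.95% and 4.38% of all genes.

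Of 27 regulators, 26 were tested in muscle; 16 rose and 4 fell in KPC against control muscle, against the same shares of all genes, with a median of 0.55, and 4 rose and 17 fell in KPC+GnP against KPC muscle, with a median of -0.62. The list holds both activators and inhibitors of autophagy, so its median has no single reading. Ddit4, an inhibitor of the growth kinase mTORC1, had 8.17, 17.2, 4.41 and 6.93 CPM in KPC+GnP muscle, 45.6, 282, 294 and 288 CPM in KPC muscle, and 4.52, 4.47, 9.53 and 6.81 CPM in control muscle. KPC libraries 2 to 4 were alike and library 1 far lower, still above all others. It rose by 5.16 ± 0.61 (SE, edgeR adjusted p = 0.000307) and fell with treatment, at -4.62 ± 0.59 (SE, edgeR adjusted p = 0.00035). Foxo1, a transcription factor that drives genes of muscle breakdown, had 69.5, 106, 28.7 and 28.9 CPM in KPC+GnP muscle, 171, 313, 231 and 218 CPM in KPC muscle, and 26.1, 22.9, 24.3 and 25.5 CPM in control muscle. All KPC libraries, library 1 included, were above the rest, and treated libraries 1 and 2 lay between KPC and control levels. It changed by 3.24 ± 0.38 (SE, edgeR adjusted p = 0.000308) in KPC against control and -2.0 ± 0.36 (SE, edgeR adjusted p = 0.00112) with treatment, while KPC+GnP against control muscle, at 1.24 ± 0.36, was not called. Bcl2, which binds Becn1 and restrains it, had 17.7, 17.0, 15.7 and 15.3 CPM in KPC+GnP muscle, 8.24, 5.92, 8.11 and 5.20 CPM in KPC muscle, and 12.6, 16.5, 15.4 and 19.6 CPM in control muscle. The KPC libraries were lowest without overlap, and Bcl2 fell, at -1.22 ± 0.17 (SE, edgeR adjusted p = 0.000401). In KPC against control hearts 3 of 26 regulators rose and 3 fell (4.95% and 4.38% of all genes). Ddit4, among those that rose, had 19.6, 25.5, 40.4 and 39.3 CPM in KPC+GnP hearts, 44.0, 97.4, 142 and 87.4 CPM in KPC hearts, and 20.8, 17.1, 24.4 and 20.5 CPM in control hearts. All KPC hearts were above the treated and control hearts, and Ddit4 rose there by 2.16 ± 0.33 (SE, edgeR adjusted p = 0.00684).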

How the data were processed

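Bulk RNA was sequenced from skeletal muscle and heart of 16 mice, 4 libraries per group and tissue, from 100 ng RNA with reads of 100 bases per the labels' protocols. The authors deposited a table of raw counts and a table of log2 FPKM per tissue. FastQC 0.11.5, STAR 2.5, featureCounts (Subread 1.5.1), edgeR 3.12.1 and mm10 are named per the submitters' processing notes, without their roles, and no source used here gives whether counting used strand. The log2 FPKM were read as the authors' values normalised by length and depth: after removal of gene and library means, their difference from the log2 counts had an SD over libraries of at most 0.0050 per gene (6182 genes in muscle and 6623 in heart).

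Counts were tested per tissue with edgeR 4.0.16 (R 4.3.3): TMM, filterByExpr (minimum count 10, total 15), all 12 libraries of a tissue in 3 groups, its quasi-likelihood test, and p-values adjusted by Benjamini-Hochberg across every gene tested, called at 0.05, with SE as the log2 fold change over the square root of F. A fit of all 24 libraries in 6 groups tested muscle against heart and the differences between tissues. The procedure was tested on simulated counts. The 38 members and the gene lists were chosen with earlier results of these data known. Genes named with values in every library were the 2 smallest p per role class in KPC against control muscle, all members that fell there, the 3 smallest p for KPC against control in heart and for each difference between tissues, and the 3 smallest p of each further list. Pink1 in muscle and Bnip3l, Sqstm1, Tfeb, Alas2 and Ddit4 in heart were added after their values were seen. Animal numbers in the titles tie muscle and heart of 8 animals. Over 14509 genes, the deviations of the 2 tissues of an animal from their group means correlated at -0.189 to 0.191, and the animal entered as a block only in alternatives. DESeq2 1.42.0 and limma 3.58.1 gave further alternatives. Promoter windows are from RefSeq (GRCm38.p6) and loci from GENCODE vM21 (GRCm38).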

Additional observations from a re-analysis of the deposited data

Results flagged for a closer look

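Single libraries stood apart from the other 3 of their group in 14 of 228 groups of 4 examined, where the gap to the nearest library, on log2 (CPM + 0.5), took a share of the group's range above Dixon's critical value for 4 samples. Chance gives such a gap in about 1 of 20 groups, a share near that found here. Genes of the same library are not independent, so several flags in a library are not separate. KPC muscle library 1 was the lowest of its group for Atg7 at 7.76 CPM (the others 13.6 to 15.3), Atg12 at 24.6 CPM and Sqstm1 at 795 CPM, and the highest for Atg10 at 9.30 CPM and Becn1 at 68.9 CPM (the others 55.3 to 55.5). KPC muscle library 2 was the highest for Optn at 189 CPM. Control muscle library 3 was the lowest for Atg9a at 140.2 CPM, Atg4a at 11.1 CPM, Atg12 at 26.2 CPM and Optn at 72.0 CPM, and control muscle library 1 the highest for Atg4b at 21.8 CPM. In heart, KPC+GnP library 4 was the lowest for Pik3c3 at 26.3 CPM, KPC+GnP library 1 the highest for Wipi2 at 61.6 CPM, and KPC library 4 the highest for Atg2b at 44.1 CPM. Whether anything sets these libraries apart was not tested.

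Differences between muscle and heart in the log2 fold change of KPC against control were called in edgeR for 16 members. They were 0.87 for Ulk1, 0.76 for Pik3c3, 1.06 for Uvrag, 0.65 for Atg9a, 0.92 for Atg2a, 0.77 for Atg2b, 0.85 for Wipi1 and 0.96 for Wipi2. The others were 0.62 for Atg4b, 0.58 for Atg7, 1.23 for Gabarapl1, 0.88 for Map1lc3b, 1.04 for Sqstm1, 1.04 for Nbr1, 1.00 for Calcoco1 and 1.2 for Tfeb. For KPC+GnP against KPC, the differences were -0.84 for Ulk1, -0.78 for Pik3c3, -1.08 for Uvrag, -0.63 for Atg9a, -0.68 for Atg2a, -0.70 for Atg2b, -1.28 for Wipi2, -0.83 for Atg4b and -0.83 for Atg7. They were -0.47 for Gabarap, -1.58 for Gabarapl1, -1.04 for Map1lc3b, -1.17 for Sqstm1, -1.01 for Nbr1, -0.76 for Calcoco1, -1.40 for Bnip3l, 0.65 for Fundc1 and -1.32 for Tfeb. Both sets share the KPC libraries.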

How the results depend on the processing

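Every called member kept its direction under the alternatives run, except 8 of 18 members that changed sign with library totals in control muscle against control heart. There library totals gave, for members called with either scaling, Atg13 (-0.52), Becn1 (-0.096), Pik3c3 (-0.28), Atg14 (-0.43), Atg2a (-0.46), Atg2b (-0.027), Atg3 (-0.13), Atg4b (-0.47), Atg4d (-0.20), Atg5 (-0.53), Atg12 (-0.23), Gabarapl2 (-0.25), Map1lc3b (-0.57), Nbr1 (-0.53), Optn (-0.49) and Fundc1 (-0.058) the opposite sign, and 7 higher and 18 lower. Of all genes, library totals gave 1782 higher and 8299 lower there. A minimum of 1.5-fold left 11 members higher and 2 lower between control tissues (3244 and 3890 of all genes). In KPC against control muscle it left 19 higher and 2 lower (2297 and 2279 of all genes). In KPC+GnP against KPC muscle it left 2 higher and 23 lower (2386 and 2188 of all genes). Library totals gave 5 higher in KPC+GnP against KPC muscle, 7 higher in KPC against control hearts and 347 genes in all in KPC+GnP against control hearts. They gave 6 higher and 5 lower for the tissue difference of KPC against control, and 3 higher and 10 lower for that of KPC+GnP against KPC. All-gene medians moved with this scaling too, to 0.27, 0.17, 0.17, -0.38 and 0.27 in these comparisons. DESeq2 called 1 gene in KPC+GnP against control muscle, and in heart 5 members higher, 1 lower and 2499 genes for KPC against control, 3 lower and 1136 genes for KPC+GnP against KPC, and 1 higher, 1 lower and 1056 genes for KPC+GnP against control, with 2 higher for the treatment difference. limma-trend on log2 FPKM called 88 and 86 genes in the 2 heart comparisons with KPC+GnP. Heart groups fitted 2 at a time gave 1 member higher and 229 genes for KPC against control, 3 genes for KPC+GnP against KPC and 918 for KPC+GnP against control. The causes were not tested.

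With the animal as a replicate block in 16 libraries, the tissue differences gave 0 higher and 1 gene (KPC against control) and 0 higher, 0 lower and 25 genes (KPC+GnP against KPC); without the block the same libraries gave 1 higher and 127 genes, and 0 higher, 1 lower and 129 genes. limma voom gave 2 higher for KPC+GnP against KPC with and without the animal as a random replicate block, where 1551 and 1511 of all genes were higher. Control muscle against control heart gave 16 higher and 3 lower under the block, where 3614 of all genes were higher and 3634 lower.

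Leaving out 1 library gave, in muscle, 24 to 26 higher, 1 to 4 lower and 5136 to 7993 genes for KPC against control, 2 to 4 higher, 24 to 27 lower and 5169 to 8056 genes for KPC+GnP against KPC, and 0 for KPC+GnP against control. In heart it gave 0 to 8 higher, 0 to 6 lower and 104 to 3554 genes for KPC against control, 0 higher, 0 to 2 lower and 0 to 1192 genes for KPC+GnP against KPC, and 0 to 1 higher, 0 lower and 1 to 612 genes for KPC+GnP against control. Control muscle against control heart gave 16 to 18 higher, 2 to 6 lower and 7905 to 9127 genes. The tissue differences gave 12 to 19 higher, 0 to 4 lower and 2677 to 5804 genes for KPC against control, and 1 to 2 higher, 13 to 22 lower and 2867 to 5696 genes for KPC+GnP against KPC. The single lower call left in KPC against control muscle came without control library 3, and the highest gene counts came without KPC muscle library 1 or, in heart, without KPC library 4 (KPC against control, KPC+GnP against KPC) or KPC library 2 (KPC+GnP against control). Calls kept without any single library were 25 of 30 for KPC against control muscle, 26 of 29 for KPC+GnP against KPC muscle, 0 of 3 for KPC against control hearts, 17 of 21 between control tissues, and 11 of 16 and 14 of 18 for the tissue differences. Calls kept under all the other alternatives together, the 1.5-fold minimum included, were 21 of 30, 21 of 29, 1 of 3, 9 of 21, 0 of 16 and 0 of 18 in the same comparisons.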
